A study of Homo sapiens with 12 samples.

Results

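The cell cycle genes described here are 43 genes of the G2 phase and of mitosis, chosen by name for the place of their products in cell division and not by any measured value. All 43 were found by their Ensembl gene identifiers among the 17710 genes of a Clariom S expression array study of MM.1S, an established human multiple myeloma cell line that responds to glucocorticoids. Each gene has 1 summarised value per array, and all 43 lay above the median gene in mean level. The 12 arrays form 4 groups of 3, and each of 3 independent experiments gave 1 array to each group. Control cells were untreated, PIM cells received 100 nM PIM447 for 24 h, Pd cells received 200 nM pomalidomide with 5 nM dexamethasone for 15 h, and PIM-Pd cells received all 3 drugs at these doses for 10 h. All cells were grown in RPMI-1640 medium with inactivated serum, and the labels give a viability of 74 to 81% under treatment. PIM447 inhibits the PIM family of serine/threonine kinases, pomalidomide binds cereblon and redirects a ubiquitin ligase, and dexamethasone is a glucocorticoid. The exposure times differ between the treatments, and no harvest time is stated for the untreated cells. Drug and exposure time therefore cannot be told apart in any comparison. A single cell line was used.

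Cells enter mitosis when cyclin B and CDK1 form an active kinase. Aurora and Polo-like kinases, kinesin motors and microtubule-binding proteins then build the spindle, the kinetochore ties chromosomes to it, and the spindle checkpoint holds back the anaphase-promoting complex until every chromosome is attached. Transcripts of this machinery are made late in the cell cycle and are low in resting cells. Their promoters often carry a cell cycle homology region, abbreviated CHR, which is read by the MuvB complex together with B-MYB and FOXM1 in dividing cells and with DREAM repressors in resting ones, and CCAAT boxes that bind NF-Y. In a culture, a change in the share of cells that are in G2 or mitosis and a change in the transcript made by each such cell cannot be told apart.

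RefSeq promoter sequence (GRCh38.p14, from 250 bases before to 50 after a gene's start) was matched for 37 of the 43 genes. AURKA, BIRC5, FOXM1, TPX2, TTK and UBE2C were not matched. The letters TTTGAA, the core of the CHR, were searched on both strands and stood in 28 of these 37 genes (75.7%), against 18.2% of all 27305 genes with a promoter entry. CCAAT, also searched on both strands, stood in 30 of the 37 (81.1%) against 39.7% of all genes, and both motifs stood in 23 (62.2%) against 7.26%. A TTTGAA and a CCAAT can overlap by a single letter. TTTGAA was not found in the windows of AURKB, BUB1, CCNA2, CCNB1, CENPE, KIF20A, KIF2C, NEK2 and PTTG1. A match is a description of the letters and not a mapped binding site. The windows that follow are those of the genes with a called change for which a promoter was matched, with PLK1 and CDC25C beside them. Each is printed 5′ to 3′ on the strand that reads TTTGAA, which is in capitals.
CCNB2: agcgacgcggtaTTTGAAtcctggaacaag
TOP2A: ggccggggtttgTTTGAAtaaaccaatcag
ASPM: ggcggcgcttcaTTTGAAtgattgcatccg
DLGAP5: cggtgcggcaagTTTGAAtttcgtggaggc
MAD2L1: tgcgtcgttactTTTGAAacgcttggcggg
PLK1: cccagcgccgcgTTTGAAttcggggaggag
CDC25C: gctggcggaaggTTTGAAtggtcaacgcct

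The CCNB2 window lies at chr15:59105105-59105134 on the plus strand, and that of PLK1 at chr16:23678848-23678877, also plus. Those of MAD2L1 (chr4:120066807-120066836), DLGAP5 (chr14:55191565-55191594) and CDC25C (chr5:138331817-138331846) lie on the minus strand, which is the strand of these genes. For TOP2A (chr17:40418030-40418059) and ASPM (chr1:197146765-197146794) the letters are printed from the plus strand, opposite to the gene. The printed site lies 29 bases before the start in CCNB2 and PLK1, 30 in CDC25C, 113 in ASPM and 151 in TOP2A. In MAD2L1 and DLGAP5 the printed site lies after the start. Where a promoter held several sites, the one nearest the start is shown. DLGAP5 held others 109 and 138 bases before the start, and TOP2A another 194 bases before it on the strand of the gene.

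The arrays as wholes were alike, with a median log2 level between 4.81 and 4.89 and pairwise correlations of 0.977 to 0.993 over all genes, and none of the 66 pairs held identical values. One array stood apart in the mitotic genes. PIM-Pd replicate 2 was the highest of its 3 replicates in 43 of 43 mitotic genes, against 31.4% of all genes on the array, and it was the highest of all 12 arrays in 37 of them, against 7.87% of all genes. It exceeded the mean of the other two PIM-Pd arrays by a median of 0.54 on the log2 scale, with a range from 0.25 for ANLN to 1.01 for KIF2C, while over all genes the same median was -0.01. The median distance of the 43 genes from the control mean was 0.52 in that array, -0.04 in PIM-Pd replicate 1 and 0.10 in replicate 3. The 3 PIM-Pd arrays thus did not share one level of mitotic transcripts. Medians over the 43 genes and many results on single genes of this group are also given without replicate 2, but not all.

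**Figure D1:**
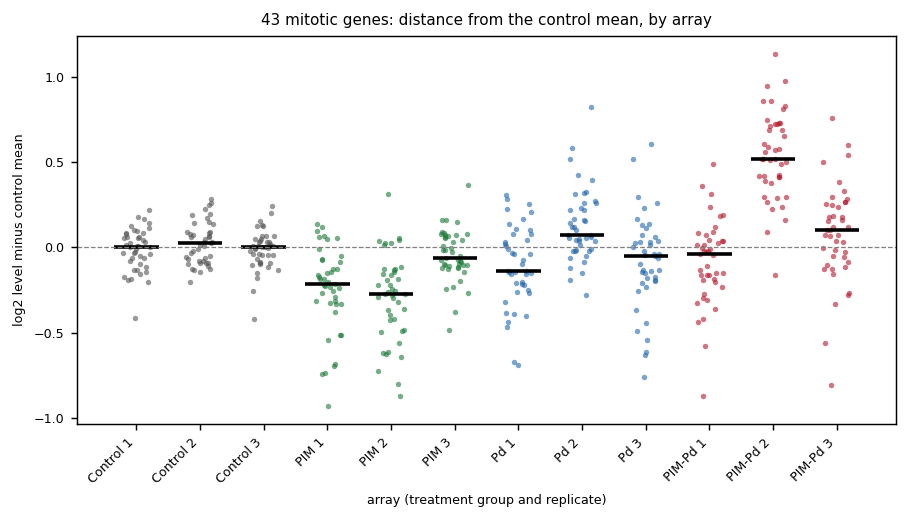
Each point is 1 of the 43 mitotic genes in 1 array, drawn as its log2 level minus the mean of the 3 control arrays, and the black bar is the median of the 43 genes. The horizontal axis lists the 12 arrays by group and replicate. The medians are -0.22, -0.27 and -0.06 in the PIM arrays, -0.14, 0.08 and -0.05 in the Pd arrays and -0.04, 0.52 and 0.10 in the PIM-Pd arrays.

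Spread within groups differed as well. The median SD of a mitotic gene over 3 replicates was 0.108 in Control, 0.205 in PIM, 0.152 in Pd and 0.330 in PIM-Pd, whereas the median SD over all genes was 0.130, 0.163, 0.129 and 0.157, and over genes with a mean level above that of the lowest mitotic gene it was 0.141, 0.193, 0.132 and 0.175. Against the latter the PIM spread was close to that of other genes, and the PIM-Pd spread was larger. Pd replicate 2 was the highest Pd array in 35 of the 43 genes. Among the PIM arrays, replicate 3 was the highest in 29 genes, and replicates 1 and 2 were the lowest in 16 and 24. In the control arrays no replicate led, with 16, 18 and 9 genes highest in replicates 1, 2 and 3.

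The PIM arrays differed in which genes lay lowest. Replicates 1 and 2 were each below the control mean in 36 of the 43 genes, so most genes were low in both. KIF20A, AURKA, CDCA3, PTTG1, DLGAP5, UBE2C and CDCA8 were among those lowest in PIM replicate 1. MKI67, KIF4A, CENPE, CENPF, KIF23, HMMR, ANLN, NDC80 and KIF15 were among those lowest in PIM replicate 2. The control arrays of the same experiments deviated in part in the same genes. KIF20A, CDCA8, CDCA3 and PTTG1 lay 0.41, 0.20, 0.17 and 0.13 below the control mean in control replicate 1, and HMMR lay 0.20 below it in control replicate 2. Over the 43 genes, deviations from the group means correlated at 0.71, 0.64 and 0.60 between the PIM and control arrays of experiments 1, 2 and 3, against 0.30, 0.22 and 0.21 over all genes. Other pairs of groups within an experiment were lower over the 43 genes. They ran from -0.21 (Control with PIM-Pd, experiment 2) to 0.53 (Pd with PIM-Pd, experiment 3). These are correlations across genes, which are not independent, and the single genes named in this paragraph were picked after their values were seen.

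**Figure D2:**
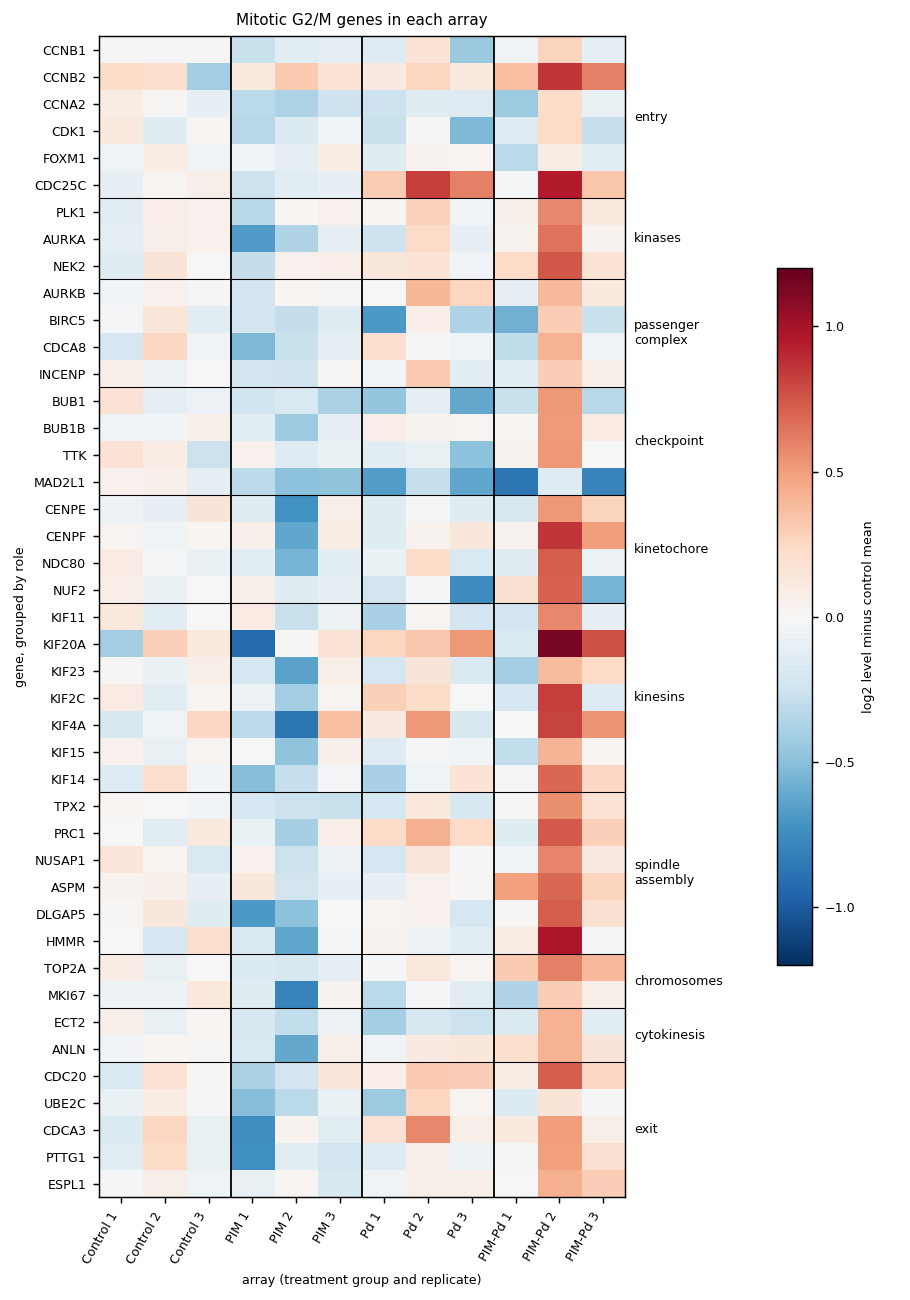
Rows are the 43 mitotic genes grouped by role and columns are the 12 arrays. Colour gives the log2 level minus the mean of the 3 control arrays, red above and blue below. PIM-Pd replicate 2 is above the control mean in 42 genes, with MAD2L1 as the exception. Most genes are blue in both PIM replicates 1 and 2, and the deepest blue cells lie in part in different genes.

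The comparison of PIM with Control asks what the PIM kinase inhibitor alone did. No mitotic gene passed the test with PIM447 alone. Of the 43 genes, 42 had a lower mean in PIM than in Control, CCNB2 being the exception, whereas 47.4% of all genes had a lower mean. The genes are not independent, so this and later counts of genes by direction are not counts of replicates. The median log2 change of the 43 was -0.19, against 0.01 over all genes, and single genes ran from -0.43 (MAD2L1) to 0.20 (CCNB2). Every 95% interval lay within 2-fold, between -0.91 and 0.55 at the extremes.

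In the limma fit the lowest adjusted p of a mitotic gene was 0.753, and 0 of the 17710 genes (0%) were called at an adjusted p under 0.05. At an unadjusted p under 0.05 there were 3 mitotic genes (6.98%), all lower in PIM (MAD2L1, CCNA2 and PTTG1), and 1098 of all genes (6.20%). In 9 mitotic genes (CCNB1, CCNA2, BUB1, BUB1B, MAD2L1, TPX2, TOP2A, BIRC5 and NDC80) all 3 PIM arrays lay below all 3 control arrays, and 4.99% of all genes did so. In none did all 3 lie above, against 5.99% of all genes. Leaving out 1 array or 1 experiment at a time gave medians from -0.25 to -0.11, with 0 to 8 genes higher in PIM.

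Pd against Control asks the same of the standard drug pair. Here the median log2 change of the mitotic genes was -0.03, against -0.01 over all genes, with 18 genes higher and 25 lower. Over the fits that left out arrays this median ran from -0.09 to 0.03, with 14 to 24 genes higher. No mitotic gene passed the limma test, where 5.42% of all genes were called and the lowest adjusted p among the 43 was 0.0924, for MAD2L1. Unadjusted, 2 mitotic genes (4.65%) had p under 0.05, CDC25C higher and MAD2L1 lower, as did 2983 of all genes (16.8%). The changes ran from -0.53 for MAD2L1 to 0.58 for CDC25C, and 42 of the 43 intervals lay within 2-fold, KIF20A being the exception with an upper end of 1.03.

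All 3 Pd arrays were above all 3 control arrays for PRC1 and CDC25C, against 12.4% of all genes, and below them for CCNA2, BUB1, MAD2L1 and ECT2, against 12.3%. With the experiment number as a block, CDC25C was called higher at an adjusted p of 0.0367, in a fit that called 6.67% of all genes. Without PIM-Pd replicate 1, which enters through the shared estimate of spread, CDC25C was called, and without PIM-Pd replicate 2 both CDC25C and MAD2L1 were called (adjusted p = 0.0244 for MAD2L1).

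PIM-Pd against Control asks what the triple combination did. TOP2A, ASPM and CCNB2 rose and MAD2L1 fell, and the other 39 genes did not pass the test. The 4 called genes are 9.30% of the 43, beside 9.44% of all genes called in the same limma fit, so the share of mitotic genes called was that of the array. By direction, 4.42% of all genes were called higher and 5.02% lower. In all, 36 of the 43 genes had a higher mean in PIM-Pd, against 51.7% of all genes, with a median log2 change of 0.21 against 0.01. Changes ran from -0.61 to 0.61, and 41 of 43 intervals lay within 2-fold, with KIF20A and KIF4A reaching beyond it.

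Much of this shift was lost with 1 array. Without PIM-Pd replicate 2 the median of the 43 genes was 0.04 and 25 genes had a higher mean. TOP2A, ASPM and CCNB2 were then no longer called, and MAD2L1 was the sole mitotic gene called. That array was the highest of its group in all 43 genes, so leaving it out could only lower the differences. Without PIM-Pd replicate 1 the median was 0.34 with 40 genes higher, and without PIM-Pd replicate 3 it was 0.28 with 36. Over all fits that left out arrays it ran from 0.03 to 0.34, with 23 to 41 genes higher. All 3 PIM-Pd arrays lay above all control arrays for CCNB2, CENPF, TOP2A, ASPM, ANLN and NEK2, against 12.2% of all genes, and below them for MAD2L1, against 12.5%. Singly, PIM-Pd replicate 2 was above every control array in 41 genes, against 29.5% of all genes. Replicate 3 was so in 21 and replicate 1 in 7, and the shares of all genes for these arrays were not worked out. Unadjusted, 7 mitotic genes (16.3%) and 3634 of all genes (20.5%) had p under 0.05. Without any 1 of the control arrays the number called was 2, 1 and 0 for replicates 1, 2 and 3 in turn, and it was 2 without PIM-Pd replicate 3. Without PIM-Pd replicate 1 it was 4, with CDC25C and CENPF called and ASPM and MAD2L1 not. A fit of the 2 compared groups alone called none of the 4 genes (adjusted p = 0.0537 for ASPM, 0.0581 for TOP2A, 0.0686 for MAD2L1 and 0.0853 for CCNB2). Without experiment 3 none was called either (adjusted p from 0.121 for ASPM to 0.319 for CCNB2). Over the other settings with all arrays the median ran from 0.17 to 0.24, and 33 to 38 genes had a higher mean.

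PIM-Pd and Pd differ in PIM447 and also in exposure time (10 h against 15 h), so PIM-Pd against Pd does not isolate the added drug. No mitotic gene passed the limma test (lowest adjusted p = 0.236, ASPM), where 0.0791% of all genes did. Means were higher in PIM-Pd for 35 of the 43, with a median log2 change of 0.20 against 0.00 over all genes, and all 43 intervals lay within 2-fold. Without PIM-Pd replicate 2 the median was 0.05 and 26 genes were higher, and without PIM-Pd replicate 1 it was 0.35 and all 43 were higher. At an unadjusted p under 0.05 there were 7 mitotic genes (16.3%), all higher, and 1518 of all genes (8.57%). CCNB2, TTK, TOP2A, ASPM, ECT2 and ANLN were higher in all 3 PIM-Pd arrays than in all 3 Pd arrays, against 6.66% of all genes, and none was lower throughout, against 7.79%.

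PIM-Pd and PIM differ in Pd and also in exposure time (10 h against 24 h). PIM-Pd against PIM had the largest median difference of the mitotic genes among the 5 pairs of groups compared. TOP2A, ASPM, TPX2 and DLGAP5 rose and none fell, 9.30% of the 43 beside 5.66% of all genes called (2.95% higher, 2.71% lower). The mean was higher in PIM-Pd for 41 of the 43, all but FOXM1 and MAD2L1, with a median log2 change of 0.34 against -0.01 over all genes. At an unadjusted p under 0.05 there were 23 mitotic genes (53.5%), all higher, and 3006 of all genes (17.0%). The largest difference in means was that of KIF20A, at 0.82, whose limma adjusted p was 0.165. Without PIM-Pd replicate 2 it was 0.54 (adjusted p = 0.467). In 15 genes all 3 PIM-Pd arrays lay above all 3 PIM arrays, against 8.45% of all genes, and in none did they lie below, against 9.35%.

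With the experiment number as a block, 11 mitotic genes were called higher, in a fit that called 7.13% of all genes, 3.70% as higher. They were ASPM, TPX2, DLGAP5 and TOP2A with AURKA, CDCA3, KIF20A, CDC20, KIF14, CDC25C and PTTG1, at adjusted p between 0.00687 (TOP2A) and 0.0440 (CDC20). No fit with this block left out an array. In the fit with no block and without PIM-Pd replicate 2, only TOP2A was called (adjusted p = 0.0222), the median was 0.20 and 35 genes were higher. A fit of the compared groups alone also called only TOP2A, and without experiment 2 or 3 none of the 43 was called. Of the single arrays, leaving out PIM-Pd replicate 1, which gave a median of 0.51 with 42 genes higher, raised the count to 10. Leaving out PIM replicate 3 raised the count to 6. It was 2 without PIM replicate 1 or 2, PIM-Pd replicate 3, any control array, or Pd replicate 1 or 3.

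The interaction asks whether PIM447 moved a gene differently with Pd than without it. None of the 43 genes passed (lowest adjusted p = 0.652, TOP2A), and 0.0169% of all genes did. Unadjusted, 12 mitotic genes (27.9%) had p under 0.05, all in the positive direction, as had 1033 of all genes (5.83%). The median was 0.38 with 41 genes positive, and without PIM-Pd replicate 2 it was 0.23 with 38 positive. Without PIM-Pd replicate 1 it was 0.48 with 43 positive. The exposure times differ in every term of this contrast. The 3 comparisons with Control share the control arrays, and those with PIM-Pd share its arrays, so their values are not independent of each other.

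**Figure D3:**
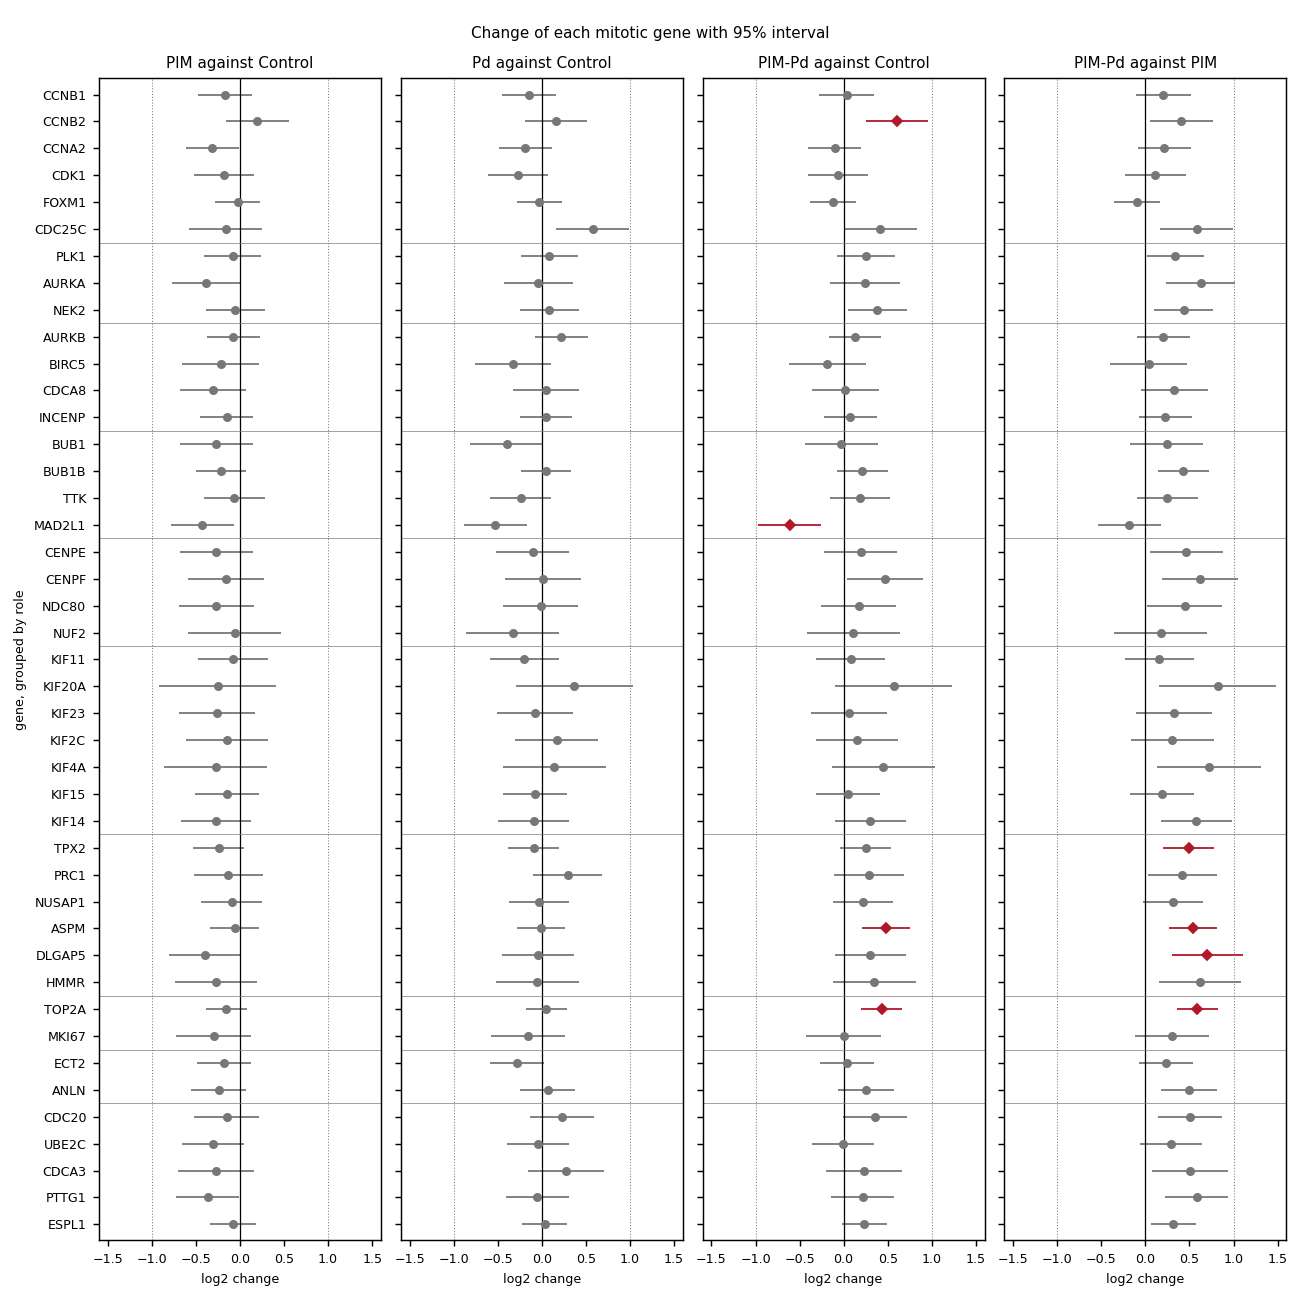
Points are log2 changes of the 43 mitotic genes, grouped by role, with 95% intervals from the limma fit, in PIM, Pd and PIM-Pd against Control and in PIM-Pd against PIM. Red diamonds are genes with an adjusted p under 0.05 and dotted lines mark 2-fold. Diamonds stand for CCNB2, ASPM, TOP2A and MAD2L1 in PIM-Pd against Control and for TPX2, ASPM, DLGAP5 and TOP2A in PIM-Pd against PIM, and no point lies beyond 2-fold.

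Among the genes of mitotic entry, CCNB2 (ENSG00000157456_at) rose in PIM-Pd and the others did not pass the test against Control. CCNB2 encodes cyclin B2, a partner of CDK1. Its log2 levels were 8.31, 8.29 and 7.68 in the control arrays, 8.21, 8.41 and 8.25 in PIM, 8.20, 8.35 and 8.21 in Pd and 8.45, 8.95 and 8.70 in PIM-Pd. All PIM-Pd arrays were above all others of the 12, and control replicate 3 lay far below the other control arrays. For this separation across all groups, and for those of ASPM, TOP2A and MAD2L1 below, no share over all genes was worked out. The means were 8.09 ± 0.36 in Control and 8.70 ± 0.25 in PIM-Pd (SD, n = 3), a log2 change of 0.61 (SE 0.17) with a limma adjusted p of 0.0310. Without control replicate 3 the change was 0.40 and the adjusted p 0.146, without PIM-Pd replicate 2 they were 0.48 and 0.122, and without PIM-Pd replicate 3 they were 0.61 and 0.0784.

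CCNB1, which encodes cyclin B1, read 8.06, 8.03 and 8.06 in Control, 7.79, 7.93 and 7.93 in PIM, 7.90, 8.21 and 7.61 in Pd and 8.01, 8.32 and 7.93 in PIM-Pd. The PIM arrays were all below the control arrays, while the Pd and PIM-Pd arrays lay on both sides of them. For CDK1, the kinase that both cyclins activate, the levels were 7.84, 7.58 and 7.75 in Control, 7.39, 7.56 and 7.67 in PIM, 7.45, 7.73 and 7.18 in Pd and 7.56, 7.96 and 7.44 in PIM-Pd. These groups overlapped, with a log2 change of -0.07 in PIM-Pd (95% interval -0.41 to 0.27). FOXM1, a transcription factor of late cell cycle genes, had levels of 8.31, 8.45 and 8.31 in Control, 8.30, 8.24 and 8.44 in PIM, 8.21, 8.40 and 8.38 in Pd and 8.03, 8.44 and 8.23 in PIM-Pd. It differed by -0.03, -0.03 and -0.12 in PIM, Pd and PIM-Pd, each interval spanning 0.

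CDC25C, the phosphatase that removes inhibitory phosphates from CDK1, had the largest mean difference of the 43 genes in Pd. It read 5.69, 5.82 and 5.86 in Control, 5.54, 5.66 and 5.69 in PIM, 6.10, 6.62 and 6.39 in Pd and 5.77, 6.74 and 6.12 in PIM-Pd. Every Pd array lay above every control array, while PIM-Pd replicate 1 lay among them. The log2 difference was 0.58 in Pd (SE 0.19, adjusted p = 0.111, or 0.0367 with the block) and 0.42 in PIM-Pd (adjusted p = 0.237), or 0.15 in PIM-Pd without replicate 2. CCNA2, which encodes the S and G2 phase cyclin A2, lay below Control in all PIM arrays (8.96 to 9.08 against 9.23 to 9.42) and in all Pd arrays (9.07 to 9.18). Its log2 difference was -0.31 in PIM, with an adjusted p of 0.795.

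The kinases PLK1, AURKA and NEK2 did not pass the test in any comparison, although AURKA was called in PIM-Pd against PIM with the experiment as a fixed or random block and with an intensity trend and robust variance. PLK1, the Polo-like kinase of spindle poles and kinetochores, read 9.74, 9.95 and 9.92 in Control, 9.54, 9.90 and 9.93 in PIM, 9.89, 10.15 and 9.84 in Pd and 9.94, 10.44 and 9.99 in PIM-Pd. The array that stood out was PIM-Pd replicate 2, and the log2 change of 0.25 in PIM-Pd had an interval of -0.07 to 0.58 and was 0.10 without that array. AURKA, the Aurora kinase of spindle poles, read 8.17, 8.36 and 8.34 in Control, 7.61, 7.93 and 8.19 in PIM, 8.04, 8.52 and 8.19 in Pd and 8.33, 8.95 and 8.33 in PIM-Pd. PIM-Pd exceeded PIM in every array, by 0.63 in the mean (adjusted p = 0.0625, or 0.0208 with the block). Without PIM-Pd replicate 2 this difference was 0.42 (limma adjusted p = 0.232, no block). NEK2, a kinase of centrosome separation, was higher in all PIM-Pd arrays than in all control arrays, with a log2 difference of 0.38 (adjusted p = 0.171), or 0.20 without PIM-Pd replicate 2.

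No gene of the chromosomal passenger complex, which corrects faulty attachments and guides cytokinesis, passed the test in any comparison. AURKB is its kinase, INCENP the scaffold, and BIRC5 (survivin) and CDCA8 (borealin) the targeting subunits. The log2 differences in PIM-Pd were -0.18 for BIRC5, 0.02 for CDCA8, 0.08 for INCENP and 0.13 for AURKB, each with an interval that spans 0. With that group's replicate 2 left out they were -0.42, -0.18, -0.03 and 0.00. The difference of BIRC5 was -0.33 in Pd, and that of CDCA8 was -0.31 in PIM. CDCA8 levels were 7.55, 8.001 and 7.71 in Control, 7.21, 7.48 and 7.64 in PIM, 7.96, 7.73 and 7.71 in Pd and 7.45, 8.17 and 7.70 in PIM-Pd, so that the groups overlapped.

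Of the spindle checkpoint genes, MAD2L1 (ENSG00000164109_at) fell in PIM-Pd, and the 3 others did not pass the test in any comparison. MAD2L1 encodes MAD2, the checkpoint protein that binds and holds CDC20. It read 7.08, 7.08 and 6.91 in Control, 6.71, 6.53 and 6.54 in PIM, 6.35, 6.74 and 6.39 in Pd and 6.15, 6.86 and 6.22 in PIM-Pd. All 9 treated arrays were below all 3 control arrays, and replicate 2 was the highest in Pd and in PIM-Pd. The mean was 7.02 ± 0.10 in Control and 6.41 ± 0.39 in PIM-Pd (SD, n = 3), and the log2 level fell by 0.61 (SE 0.17, limma adjusted p = 0.0328). The differences in PIM and Pd, -0.43 and -0.53, had adjusted p of 0.753 and 0.0924.

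Unlike the other called genes, MAD2L1 differed more without PIM-Pd replicate 2, with a difference of -0.84 and an adjusted p of 0.00207. The call was lost without control replicate 1, 2 or 3 or PIM-Pd replicate 1 or 3, at log2 differences of -0.67 to -0.48 and adjusted p of 0.0590 to 0.136. The difference between PIM-Pd and Pd was -0.08 (95% interval -0.44 to 0.28), and that between PIM-Pd and PIM was -0.18 (-0.54 to 0.18).

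BUB1, a checkpoint kinase at the kinetochore, read 9.45, 9.16 and 9.20 in Control, 9.03, 9.08 and 8.89 in PIM, 8.80, 9.15 and 8.66 in Pd and 8.999, 9.79 and 8.94 in PIM-Pd. PIM and Pd arrays were all below the control arrays, and PIM-Pd arrays lay on both sides. Its log2 difference was -0.40 in Pd (adjusted p = 0.320) and -0.03 in PIM-Pd, where another normalisation turned its sign. BUB1B, which encodes the checkpoint protein BUBR1, and TTK, the kinase MPS1 that starts the signal, had differences of 0.21 and 0.19 in PIM-Pd. Without PIM-Pd replicate 2 the differences of BUB1, BUB1B and TTK were -0.30, 0.06 and 0.02.

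At the kinetochore, all 4 genes had a higher mean in PIM-Pd than in Control and none passed the test. Only 2 of the 4 did so without PIM-Pd replicate 2, CENPE (0.04) and CENPF (0.27), while NDC80 was at -0.10 and NUF2 at -0.19. CENPE, a kinesin that moves chromosomes to the spindle equator, read 7.57, 7.54 and 7.79 in Control, 7.49, 6.91 and 7.71 in PIM, 7.49, 7.61 and 7.49 in Pd and 7.44, 8.15 and 7.90 in PIM-Pd. CENPF, a large protein of the outer kinetochore, read 8.43, 8.34 and 8.41 in Control, 8.46, 7.77 and 8.48 in PIM, 8.25, 8.44 and 8.53 in Pd and 8.44, 9.25 and 8.90 in PIM-Pd. Both were low in PIM replicate 2 and high in PIM-Pd replicate 2. CENPF had a log2 difference of 0.47 in PIM-Pd (adjusted p = 0.197) and all PIM-Pd arrays above all control arrays, by a narrow margin in replicate 1. NDC80, a subunit of the complex that grips microtubules, read 7.68, 7.57 and 7.50 in Control, 7.46, 7.02 and 7.46 in PIM, 7.51, 7.80 and 7.40 in Pd and 7.44, 8.31 and 7.53 in PIM-Pd. In PIM-Pd it had 1 array far above the control arrays, 1 within their range and 1 below it. NUF2, its partner in that complex, had the widest Pd range of the kinetochore genes, from 6.27 to 7.02.

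The 7 kinesin motors all had a higher mean in PIM-Pd than in Control, with a median log2 difference of 0.16 and a highest value of 0.57, and none passed the test. Only 3 of the 7, KIF20A (0.29), KIF4A (0.27) and KIF14 (0.11), were higher without PIM-Pd replicate 2, and the median was -0.09. KIF20A, the midzone motor that carries the passenger complex, varied most between arrays. It read 6.55, 7.25 and 7.09 in Control, 6.03, 6.98 and 7.12 in PIM, 7.21, 7.29 and 7.48 in Pd and 6.77, 8.10 and 7.72 in PIM-Pd. Replicate 1 was the lowest in every group, and the interval of its difference in PIM-Pd ran from -0.09 to 1.23. KIF11, the Eg5 motor that separates spindle poles, read 8.70, 8.45 and 8.57 in Control, 8.67, 8.30 and 8.52 in PIM, 8.18, 8.61 and 8.34 in Pd and 8.34, 9.15 and 8.47 in PIM-Pd. Apart from PIM-Pd replicate 2, the treated arrays lay within or below the control range. KIF4A, a motor of chromosome arms and the midzone, differed by 0.72 between PIM-Pd and PIM (adjusted p = 0.165), or by 0.54 without PIM-Pd replicate 2.

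In spindle assembly, all 6 genes had a higher mean in PIM-Pd than in Control, with a median log2 difference of 0.30. All 6 were still higher without PIM-Pd replicate 2, with a median of 0.08. ASPM (ENSG00000066279_at), a protein of spindle poles, rose. It read 8.54, 8.56 and 8.40 in Control, 8.64, 8.28 and 8.40 in PIM, 8.41, 8.56 and 8.51 in Pd and 8.99, 9.19 and 8.77 in PIM-Pd. The 3 PIM-Pd arrays were above the other 9. Means were 8.50 ± 0.09 in Control and 8.98 ± 0.21 in PIM-Pd (SD, n = 3), a log2 change of 0.48 (SE 0.13, limma adjusted p = 0.0279), and the change against PIM was 0.54 (adjusted p = 0.0219). Against Control the call was lost without control replicate 1, 2 or 3 or PIM-Pd replicate 1 or 2, at changes of 0.38 to 0.51 and adjusted p of 0.0560 to 0.115. Against PIM it was lost without PIM replicate 2 or 3 or PIM-Pd replicate 1 or 2, at changes of 0.44 to 0.54 and adjusted p of 0.0537 to 0.0907.

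TPX2 (ENSG00000088325_at), which activates AURKA on spindle microtubules, rose in PIM-Pd relative to PIM. Its levels were 8.31, 8.29 and 8.25 in Control, 8.08, 8.03 and 8.02 in PIM, 8.07, 8.41 and 8.10 in Pd and 8.30, 8.84 and 8.46 in PIM-Pd. The PIM arrays lay together below the control arrays, and all PIM-Pd arrays were above the PIM arrays. The change against PIM was 0.49 (SE 0.14, limma adjusted p = 0.0489), and that against Control was 0.25 (adjusted p = 0.350). The call against PIM stood near the threshold, since it was lost without any 1 array other than Pd replicate 2 or PIM-Pd replicate 1, at changes of 0.34 to 0.53 and adjusted p of 0.0590 to 0.180.

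DLGAP5 (ENSG00000126787_at), a microtubule-binding protein that stabilises kinetochore fibres, also rose relative to PIM. It read 8.11, 8.24 and 7.95 in Control, 7.41, 7.60 and 8.09 in PIM, 8.13, 8.15 and 7.89 in Pd and 8.11, 8.82 and 8.28 in PIM-Pd. PIM replicate 3 was within the control range and the other PIM arrays below it, and the lowest PIM-Pd array was just above the highest PIM array. The change against PIM was 0.70 (SE 0.19, limma adjusted p = 0.0434). It was lost without any 1 array other than PIM replicate 3 or PIM-Pd replicate 1, at changes of 0.49 to 0.77 and adjusted p of 0.0536 to 0.168.

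**Figure D4:**
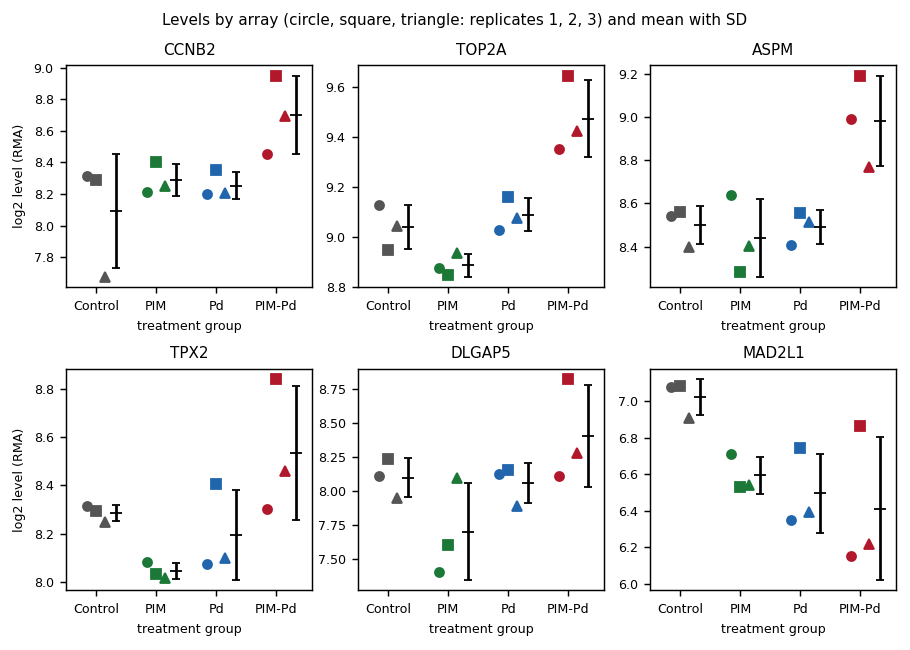
Log2 levels of the 6 mitotic genes with a called change, by group, with circles, squares and triangles for replicates 1, 2 and 3 and a bar for the mean with its SD. Vertical axes differ between panels and do not start at 0. In CCNB2, TOP2A and ASPM the 3 PIM-Pd arrays lie above the other 9, and in MAD2L1 all 9 treated arrays lie below the control arrays. The share of all genes with such patterns was not worked out.

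TOP2A (ENSG00000131747_at), the topoisomerase that untangles chromosomes before they separate, had the smallest standard error of the called genes and rose in PIM-Pd relative to both Control and PIM. It read 9.13, 8.95 and 9.04 in Control, 8.88, 8.85 and 8.94 in PIM, 9.03, 9.16 and 9.08 in Pd and 9.35, 9.65 and 9.42 in PIM-Pd. The 3 PIM-Pd arrays were above the other 9 and the PIM arrays were the lowest. Means were 9.04 ± 0.09 in Control and 9.47 ± 0.15 in PIM-Pd (SD, n = 3), a log2 change of 0.43 (SE 0.11, limma adjusted p = 0.0195). Against PIM the change was 0.59 (adjusted p = 0.00470), and this call held without any 1 of the 12 arrays. It was lost without experiment 2 (adjusted p = 0.0958) or experiment 3 (adjusted p = 0.0777). The call against Control was lost without control replicate 2 or 3 or PIM-Pd replicate 2, at changes of 0.35 to 0.44 and adjusted p of 0.0612 to 0.0830.

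MKI67, which encodes the proliferation marker Ki-67, a coat protein of mitotic chromosomes, had equal means in PIM-Pd and Control. It read 10.09, 10.09 and 10.27 in Control, 10.01, 9.35 and 10.19 in PIM, 9.83, 10.13 and 10.02 in Pd and 9.79, 10.45 and 10.22 in PIM-Pd. The interval of its difference in PIM-Pd ran from -0.42 to 0.42, and without PIM-Pd replicate 2 the difference was -0.15. The genes of cytokinesis, ECT2, which activates RhoA at the midzone, and ANLN, a scaffold of the contractile ring, had differences of 0.04 and 0.25 in PIM-Pd, or -0.14 and 0.17 without replicate 2, and did not pass the test.

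At mitotic exit, CDC20 and UBE2C, an activator and a ubiquitin-conjugating enzyme of the anaphase-promoting complex, act beside securin (PTTG1) and separase (ESPL1). CDCA3 was listed in this role group without a claim that it acts at exit. CDC20 read 8.33, 8.68 and 8.52 in Control, 8.13, 8.29 and 8.66 in PIM, 8.59, 8.83 and 8.81 in Pd and 8.60, 9.23 and 8.76 in PIM-Pd. PIM-Pd replicates 2 and 3 were above the control range and replicate 1 within it, with a log2 difference of 0.36 (adjusted p = 0.263), or 0.17 without replicate 2. UBE2C read 7.05, 7.21 and 7.11 in Control, 6.61, 6.80 and 7.05 in PIM, 6.69, 7.38 and 7.16 in Pd and 6.96, 7.28 and 7.10 in PIM-Pd, and its difference in PIM-Pd was -0.01 (95% interval -0.36 to 0.34). PTTG1 had a log2 difference of -0.37 in PIM (adjusted p = 0.795), where replicate 1 at 7.52 lay far below replicates 2 and 3 at 8.13 and 8.02. Against PIM, PIM-Pd was higher by 0.58 (adjusted p = 0.0582, or 0.00832 with the block). Without PIM-Pd replicate 2 it was higher by 0.45 (limma adjusted p = 0.206, no block).

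No mitotic gene reached a 2-fold difference in any of the 5 comparisons of groups. The standard error of a log2 change had a median of 0.170 over the 43 genes and ran from 0.108 to 0.311 in these comparisons.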

How the data were processed

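Total RNA of MM.1S cells was hybridised to Clariom S human arrays, with 3 arrays for each of 4 groups. The deposited log2 values were made by the authors with RMA (oligo 1.44.0 in R 3.5.0) and a custom BrainArray Ensembl gene definition (version 22). They are relative to the other transcripts of an array, and RMA can narrow differences of low genes. RNA extraction is described differently in the labels and the design text. Groups and replicate numbers came from the labels.

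A one-way model of the 4 groups was fitted to all 12 arrays and 17710 genes with limma 3.58.1 in R 4.3.3, with 6 contrasts, no filter, and Benjamini-Hochberg adjustment over all genes of each contrast. A gene was called at an adjusted p under 0.05 (two-sided). The study used SAM with a fold threshold of 2, which was not run. The fits were tested on simulated data. A log2 change of 1 is 2-fold. Intervals are 95%, and their width is set by the number of arrays.

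The labels mark the replicate number as a pairing, and the design text names 3 independent experiments. Deviations from the group means of arrays with the same number correlated at -0.10 to 0.30 over all genes (median 0.097, 9 of 18 pairs over 0.1), against a median of -0.04 for the 36 pairs with different numbers. The main model does not use this pairing, and the block is an alternative. For PIM-Pd against PIM, 4 mitotic genes were called without it, 11 with a fixed block and 6 with a random block.

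Alternatives were a fixed and a random replicate block, centring each array on its median, quantile normalisation, leaving out the lowest 25% of genes, an intensity trend with robust variance, fitting the compared groups only, requiring 2-fold, and leaving out each array or experiment. The 43 members were chosen by name and not by a measured value, but earlier results of these data were known when members, roles and lists were set. Every value per array was printed for 12 core genes and for the 4 largest and 4 smallest differences in PIM-Pd and in Pd against Control. DLGAP5, CCNA2 and values of other members were added after the values were seen. The table names genes by Ensembl identifier, and the tables used here pair these with symbols for the 43 members alone, so the other cell cycle lists and the plasma cell markers were not analysed here, and the identity of the line was not checked by its markers.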

Additional observations from a re-analysis of the deposited data

How the results depend on the processing

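Counts of mitotic genes called depended on the model. For Pd against Control, where 0 were called, the fixed replicate block called 1 and a fit of the compared groups alone called 2. For PIM-Pd against Control, where 4 were called, the fit of the compared groups alone and the 2-fold requirement both called 0. For PIM-Pd against PIM, where 4 were called, the replicate block called 11, an intensity trend with robust variance 7, arrays centred on their medians 2, the compared groups alone 1 and the 2-fold requirement 0. Why these counts differ was not tested. The fixed block changed no other count. Leaving out single arrays gave 0 to 2 for Pd against Control, 0 to 4 for PIM-Pd against Control and 1 to 10 for PIM-Pd against PIM, and leaving out 1 experiment gave 0 to 1, 0 to 2 and 0 to 2. The other 3 contrasts gave 0 in all fits. The interaction had no fit of compared groups alone, and the lists without symbols were not run. Directions turned in genes with small differences. With centred arrays the log2 difference in PIM-Pd against Control was -0.00515 for CCNB1, -0.0404 for MKI67 and -0.0210 for CDCA8, and in Pd against Control it was -0.00455 for CENPF. With quantile normalisation BUB1 and UBE2C stood at 0.0134 and 0.0234 in PIM-Pd against Control. Without PIM-Pd replicate 2 the difference in PIM-Pd against Control turned in 11 of the 43 genes. Among the differences of the genes whose values per array are printed by rule, leaving out arrays turned 16, with ranges in PIM-Pd against Control of -0.0903 to 0.117 for CCNB1, -0.292 to 0.0544 for CDK1, -0.354 to 0.183 for BUB1, -0.0124 to 0.391 for CENPE, -0.230 to 0.301 for KIF11, -0.0943 to 0.0656 for UBE2C, -0.178 to 0.182 for MKI67 and -0.177 to 0.183 for CDCA8. In Pd against Control they were -0.308 to 0.00852 for CCNB1, -0.00841 to 0.172 for PLK1, -0.173 to 0.0669 for AURKA, -0.0494 to 0.108 for CENPF, -0.0316 to 0.124 for TOP2A, -0.0706 to 0.0554 for ASPM, -0.135 to 0.0706 for NDC80 and -0.0722 to 0.0344 for FOXM1. With 3 arrays a group, the number of arrays limits the precision.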
